A study of Mus musculus with 9 samples.

Results

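RNA-seq of whole liver was examined for 9 genes of the circadian clock and its output: Arntl (also called Bmal1), Npas2, Nfil3, Dbp, Tef, Hlf, Per3, Cry2 and Bhlhe41. They are 9 of the 24008 genes in the count table, and all 9 were among the 14379 genes that passed the filter on low counts. The genes were chosen by their levels in these same libraries, in which F4MKO + FSTL1 livers stood apart from F4MKO livers. Their differences between groups are therefore a description, given as log2 fold changes with standard errors (SE). The number of them that passed the threshold applied to all genes is stated in each comparison beside the share of all genes that passed, and nothing is read from it, since the choice of the genes used these libraries.

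The data come from 9 mice, 3 per group, with 1 library per mouse, and all mice received a diet rich in fat and carbohydrate that induces nonalcoholic steatohepatitis (NASH). Flox mice, labelled by their wild-type genotype, were the controls. F4MKO mice lacked IRF4 in skeletal muscle, through a Cre driven by the Myl promoter acting on floxed Irf4, and the liver was not the target of the deletion. F4MKO + FSTL1 mice carried the same deletion and also received AAV8 with FSTL1, a secreted muscle protein, under the muscle creatine kinase promoter in the gastrocnemius. The study's methods place a virus with GFP in the Flox and F4MKO mice, for which the labels name no vector. The mice were of the C57BL/6J strain, lived in a cycle of light and dark with free access to food, and the study describes its mice as young adult males at the start, with another passage naming both sexes in some experiments, but gives no sex or age for each of these 9 libraries. The hour at which the livers were taken is also not given, so time of day and group cannot be told apart.

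In the liver clock, ARNTL pairs with CLOCK or NPAS2 and switches on genes that carry E-boxes, among them the Per and Cry genes, whose proteins then block the pair. The same pair drives Dbp, Tef and Hlf, which encode the PAR bZIP activators, and these bind D-boxes, where NFIL3 acts against them. REV-ERB and ROR proteins compete at a further element, the RORE, and set the level of Arntl, Npas2 and Nfil3. In mouse liver over a normal day, Arntl, Npas2 and Nfil3 mRNA (the Arntl-phase genes below) peak at roughly the opposite time to Dbp, Tef, Hlf and Per3, which with Cry2 and Bhlhe41 form the Dbp-phase genes below.

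Parts of the promoters are shown with their matches to these elements, which did not sort all 9 genes by the factors named above. RefSeq (build GRCm38.p6) gave 11 promoters for the 9 genes, each from 250 bases before to 50 bases after a transcription start. Both strands were searched for the E-box CACGTG, the E-prime box CACGTT, the D-box TTATGNAA and the RORE core TAGGTCA, and no match overlapped another. An E-box was present for Tef and Bhlhe41, and in 7.15% of all 32851 promoters of this length. An E-prime box was present for Cry2 (4.68% of all promoters), and the D-box for Per3 (3.38%). A RORE core was present for Arntl and Nfil3 (2.61%). Dbp, Hlf and Npas2 held none of these letters in the window. The windows below are written 5′ to 3′ on the strand of the gene, with the match in capitals. They lie at chr7:113207529-113207558 (plus strand) for Arntl, where the match starts 30 bases after the start, at chr13:52981034-52981063 (minus) for Nfil3, where it starts 12 bases before, at chr4:151044801-151044900 (minus) for Per3, at chr2:92434166-92434265 (minus) for Cry2, at chr6:145865556-145865585 (minus) for Bhlhe41 and at chr15:81811246-81811345 (plus) for Tef.
Arntl RORE core: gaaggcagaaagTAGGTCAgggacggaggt
Nfil3 RORE core, read on the other strand: ggcgctcggaacTGACCTActaacacacat
Per3 D-box, 2 matches: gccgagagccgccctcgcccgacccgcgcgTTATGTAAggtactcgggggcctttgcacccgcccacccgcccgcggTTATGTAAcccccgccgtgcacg
Cry2 E-prime box, read on the other strand: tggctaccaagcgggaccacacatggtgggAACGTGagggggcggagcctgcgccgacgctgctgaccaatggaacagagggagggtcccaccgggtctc
Bhlhe41 E-box: tggtacgttccgCACGTGagctgggtgctg
Tef E-box: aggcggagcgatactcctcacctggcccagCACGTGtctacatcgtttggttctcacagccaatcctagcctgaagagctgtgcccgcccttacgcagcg
A match is a run of letters and not a measured binding site. The second E-box promoter of Tef lies upstream of this one and is not shown.

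The total count per library was 22900737 to 23896946 in Flox, 23265774 to 24322984 in F4MKO and 20656976 to 22891868 in F4MKO + FSTL1, and levels are given in CPM (counts scaled to library size) after TMM normalization. In a principal component analysis of log2 CPM, the first component (49.0% of the variance) separated F4MKO from F4MKO + FSTL1. On the second (12.7%), the library numbered 3 of each group lay between 16.8 and 24.2 and the other libraries between -20.7 and 2.40. Irf4 in liver had 101 to 132 counts in 7 of the libraries, 92 in F4MKO + FSTL1 replicate 2 and 10 in F4MKO + FSTL1 replicate 1, and because the deletion is in muscle these counts do not check the genotype. Fstl1 in liver was 6.15 to 7.62 CPM in Flox, 9.80 to 16.1 CPM in F4MKO and 3.22 to 5.33 CPM in F4MKO + FSTL1. The virus was injected into muscle, so the liver level does not check the injection.

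Arntl and Npas2, the activators of the loop, were lowest in the livers of F4MKO + FSTL1 mice. Arntl was at 13.8, 8.60 and 5.10 CPM in the Flox libraries 1, 2 and 3. It was at 12.5, 10.01 and 7.07 CPM in the F4MKO libraries 1, 2 and 3, and at 3.13, 2.79 and 3.13 CPM in those of F4MKO + FSTL1. Each F4MKO + FSTL1 library was below each library of the other groups, which overlapped with each other. The group means were 9.18 ± 4.39, 9.84 ± 2.70 and 3.02 ± 0.20 CPM (SD, n = 3). In F4MKO + FSTL1 compared with F4MKO, Arntl was 3.26-fold lower (log2 fold change -1.71, SE 0.33), and compared with Flox its log2 fold change was -1.60 (SE 0.33).

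Npas2, the partner of ARNTL that can replace CLOCK, had the fewest reads of the 9 genes, with 11 to 110 counts per library. It was at 3.17, 1.76 and 1.07 CPM in the Flox libraries 1, 2 and 3, at 3.89, 3.02 and 1.20 CPM in those of F4MKO and at 0.607, 0.769 and 0.575 CPM in those of F4MKO + FSTL1. The F4MKO + FSTL1 libraries again lay below all others. Npas2 was 4.14-fold lower in F4MKO + FSTL1 than in F4MKO (log2 fold change -2.05, SE 0.50) and had a log2 fold change of -1.61 (SE 0.51) against Flox.

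Dbp, Tef and Hlf, the PAR bZIP activators, were highest in F4MKO + FSTL1. Dbp was at 24.3, 43.6 and 65.5 CPM in the Flox libraries 1, 2 and 3. It was at 21.3, 35.1 and 62.4 CPM in those of F4MKO, and at 96.2, 110.7 and 80.8 CPM in those of F4MKO + FSTL1. The lowest F4MKO + FSTL1 library was above the highest of the other 6. The log2 fold change of Dbp was 1.28 (SE 0.38) against F4MKO, a 2.42-fold difference, and 1.11 (SE 0.37) against Flox.

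Tef was at 89.1, 125.5 and 147.4 CPM in Flox, 77.0, 108.3 and 120.4 CPM in F4MKO and 184.6, 202.3 and 179.7 CPM in F4MKO + FSTL1. Its log2 fold change in F4MKO + FSTL1 was 0.89 (SE 0.19) against F4MKO and 0.65 (SE 0.19) against Flox. The standard errors of Tef were smaller than those of Dbp, and its groups separated in the same way. Hlf was at 38.6, 53.3 and 59.7 CPM in Flox, 32.6, 42.8 and 45.2 CPM in F4MKO and 61.7, 68.0 and 63.1 CPM in F4MKO + FSTL1. Its log2 fold change was 0.68 (SE 0.16) against F4MKO and 0.35 (SE 0.16) against Flox, and the highest Flox library came within 2 CPM of the lowest F4MKO + FSTL1 library. Dbp shares 539 exon bases (18.01% of its exons in GENCODE M21) with Sphk2, a sphingosine kinase gene on the opposite strand, and whether the counting used strand is not given. Sphk2 was at 61.0 to 69.1 CPM in F4MKO + FSTL1 and 60.1 to 72.5 CPM in F4MKO, ranges that overlap. In Flox it was at 67.6 to 113.8 CPM, highest in replicate 1, the Flox library with the lowest Dbp.

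Per3, Cry2 and Bhlhe41, whose proteins act as repressors in the loop, were also higher in F4MKO + FSTL1, by different amounts. Per3 was at 2.01, 4.34 and 6.30 CPM in Flox, 2.76, 3.14 and 4.99 CPM in F4MKO and 8.55, 7.98 and 7.10 CPM in F4MKO + FSTL1. Bhlhe41 (also called Dec2, a repressor that competes for E-boxes) was at 3.61, 4.63 and 6.48 CPM in Flox, 3.11, 3.06 and 6.83 CPM in F4MKO and 10.7, 13.4 and 11.4 CPM in F4MKO + FSTL1. The F4MKO + FSTL1 libraries lay above all others for both genes. The log2 fold change against F4MKO was 1.12 (SE 0.34) for Per3 and 1.45 (SE 0.30) for Bhlhe41, and against Flox it was 0.90 (SE 0.33) and 1.27 (SE 0.30). Without F4MKO replicate 3, in which Bhlhe41 was highest of its group, the value of Bhlhe41 against F4MKO was 1.94. Bhlhe41 shares 19.1% of its exon bases with a gene model of the opposite strand, Gm43909, that is not a row of the table.

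Cry2 differed less. It was at 25.4, 26.4 and 26.1 CPM in Flox, 18.2, 23.0 and 29.7 CPM in F4MKO and 31.3, 28.5 and 37.1 CPM in F4MKO + FSTL1. F4MKO replicate 3 was above F4MKO + FSTL1 replicate 2, so these groups overlapped, whereas the 3 Flox libraries all lay below the F4MKO + FSTL1 libraries. The log2 fold change was 0.45 (SE 0.16) against F4MKO and 0.32 (SE 0.16) against Flox.

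Nfil3, the repressor that binds the D-box, did not follow Arntl and Npas2 between groups. It was at 34.1, 21.2 and 20.95 CPM in Flox, 16.3, 19.3 and 17.8 CPM in F4MKO and 15.6, 25.7 and 20.1 CPM in F4MKO + FSTL1. The F4MKO + FSTL1 libraries spanned the whole range of the F4MKO libraries, with a log2 fold change of 0.20 (SE 0.21). All F4MKO libraries were below all Flox libraries (log2 fold change -0.52, SE 0.21), and this difference was -0.25 without Flox replicate 1, the library with the highest Nfil3.

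**Figure D1:**
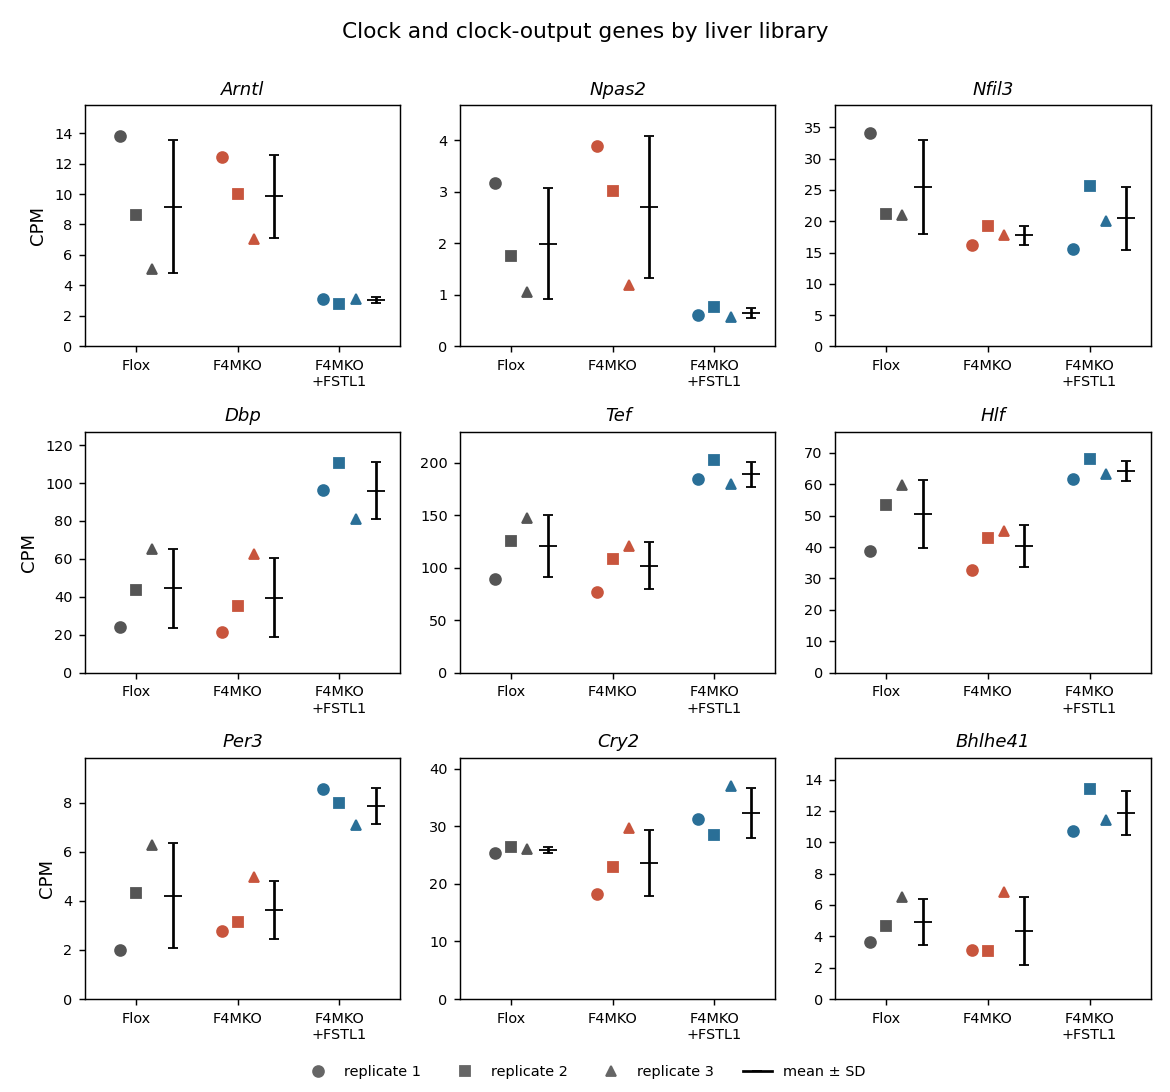
Level of each of the 9 genes in CPM (y axis, linear, starting at 0) in every liver library of the Flox, F4MKO and F4MKO + FSTL1 groups, with the symbol giving the replicate number and the bar the mean ± SD of 3 mice. In the F4MKO + FSTL1 group Arntl sits between 2.79 and 3.13 CPM, below all other libraries, and Dbp between 80.8 and 110.7 CPM, above all others, while Nfil3 and Cry2 overlap with F4MKO.

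A gene was called at an adjusted p under 0.05 (Benjamini-Hochberg over all tested genes) and a fold change above 1.5 in edgeR's quasi-likelihood test. In F4MKO + FSTL1 compared with F4MKO, 14.4% of all tested genes were called, 3.21% higher and 11.2% lower, and the groups of 39.0% did not overlap. In this comparison Dbp, Tef, Hlf, Per3 and Bhlhe41 were called higher (5 of 9), Arntl and Npas2 lower (2 of 9), and the same 7 genes had groups that did not overlap. Of the called genes, Hlf was nearest to the fold threshold at 1.60-fold, and Cry2, with 1.37-fold, was below it. The call was sensitive to single libraries. Without F4MKO replicate 1 it held for 3 genes (Arntl, Tef and Bhlhe41), and without F4MKO + FSTL1 replicate 2 for 4 (these and Npas2). Without F4MKO replicate 2, and likewise without F4MKO + FSTL1 replicate 1, Dbp and Per3 lost it, and without F4MKO + FSTL1 replicate 3 Per3 did. Without F4MKO replicate 3, Cry2 gained it. None of the 9 log2 fold changes in this comparison changed sign when a library was left out; they ranged from -1.89 to -1.50 for Arntl and from 0.97 to 1.77 for Dbp.

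In F4MKO + FSTL1 compared with Flox, 0.00695% of all genes (1 gene) were called and the groups of 18.2% did not overlap. Of the 9 clock genes edgeR called none, 6 had an unadjusted p under 0.05, and DESeq2 called 3 (Arntl, Tef and Bhlhe41), counts that describe the chosen genes and are no test of them. The libraries did not overlap for 8 of the 9, with 6 higher, 2 lower and only Nfil3 overlapping. The F4MKO + FSTL1 libraries are shared by this comparison and the preceding one, so their values are not independent.

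In F4MKO compared with Flox, 0.271% of all genes were called and the groups of 21.8% did not overlap. None of the 9 clock genes was called by edgeR or DESeq2, 1 had an unadjusted p under 0.05, and only Nfil3 had groups that did not overlap. Their log2 fold changes lay between -0.52 (Nfil3) and 0.44 (Npas2, SE 0.43). Arntl was at 0.10 (SE 0.30), Dbp at -0.17 (SE 0.37), Tef at -0.24 (SE 0.19), Hlf at -0.33 (SE 0.16), Per3 at -0.22 (SE 0.34), Cry2 at -0.14 (SE 0.16) and Bhlhe41 at -0.18 (SE 0.31). Leaving out Flox replicate 3 turned the sign for Arntl (-0.19), Dbp (0.22), Per3 (0.18) and Bhlhe41 (0.07), and leaving out F4MKO replicate 1 turned it for Cry2 (0.03). Flox had the middle of the 3 group means for 8 of the 9 genes, all but Nfil3.

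**Figure D2:**
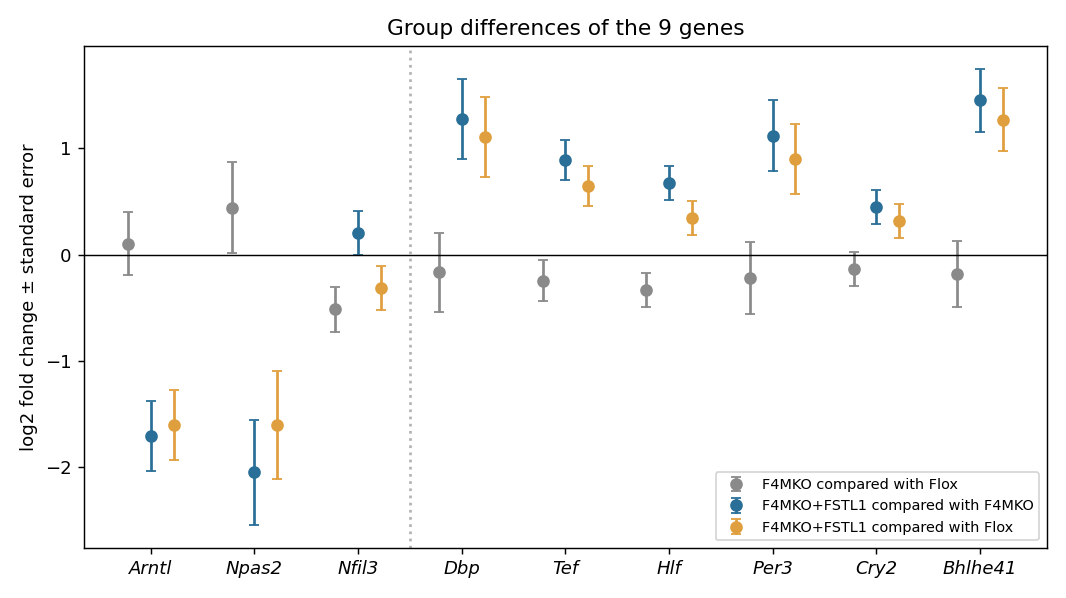
Log2 fold change ± SE (y axis) of the 9 genes in the 3 comparisons, from the edgeR fit over all 9 libraries, with Arntl-phase genes left of the dotted line and Dbp-phase genes right of it. Differences between F4MKO and Flox stay between -0.52 and 0.44, whereas the F4MKO + FSTL1 group differs from F4MKO by -2.05 (Npas2) to 1.45 (Bhlhe41).

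Markers of other cells and mitosis genes also differed in the F4MKO + FSTL1 livers. Compared with F4MKO, 6 of 10 macrophage markers (led by Lyz2, log2 fold change -1.19, adjusted p = 0.00288 in edgeR), 8 of 10 stellate cell markers (led by Col1a1, -2.25, adjusted p = 0.00152), 4 of 5 tested cholangiocyte markers (led by Spp1, -2.64, adjusted p = 0.00140) and 8 of 8 mitosis genes (led by Hmmr, -4.26, adjusted p = 0.00116) fell. Hmmr had means of 3.86 CPM in F4MKO and 0.2025 CPM in F4MKO + FSTL1, where 1 count equalled 0.0467 to 0.0522 CPM. Its log2 fold change ranged from -5.27 to -3.91 with a library left out. Bub1 (0.0522 CPM) and Ccnb1 (0.1965 CPM) also had low means in F4MKO + FSTL1. The macrophage markers not called were Clec4f (-0.29) and Vsig4 (-0.41), which were lower, and Timd4 (0.51) and Marco (0.08), which were higher. Cd5l lost its call without F4MKO replicate 2 or 3 or F4MKO + FSTL1 replicate 1 or 2 (adjusted p 0.0541 to 0.0985 in edgeR). C1qa lost it without F4MKO + FSTL1 replicate 1 or 2 (0.0653 and 0.0834), and the stellate cell marker Pdgfrb without F4MKO + FSTL1 replicate 2 (0.0526). Summed over the list, macrophage markers were at 661 to 1064 CPM in Flox, 837 to 894 CPM in F4MKO and 400 to 625 CPM in F4MKO + FSTL1. Stellate cell markers were at 390 to 457, 541 to 726 and 246 to 340 CPM, cholangiocyte markers at 50.7 to 89.0, 161 to 431 and 36.1 to 54.1 CPM, and mitosis genes at 15.8 to 29.3, 35.0 to 43.2 and 5.82 to 9.56 CPM in the same groups. Spp1 made up most of the cholangiocyte sum. Its means were 59.9, 247.9 and 39.7 CPM in these groups, against means of 70.45, 271.6 and 47.45 CPM for the whole list. Bulk counts do not show which cells the Spp1 reads came from. None of the 8 hepatocyte markers, 10 endothelial markers and 7 tested lymphocyte markers was called in this comparison by edgeR, in which 1, 2 and 1 of them had an unadjusted p under 0.05. Hepatocyte markers, which define the labelled tissue, summed to 91680 to 96600 CPM in Flox, 67430 to 99410 CPM in F4MKO and 77560 to 95600 CPM in F4MKO + FSTL1, and no listed marker was at 0 throughout a group. In F4MKO compared with Flox, Spp1 (log2 fold change 2.05, edgeR adjusted p = 0.0404) and Epcam (2.01, adjusted p = 0.0360), both on the cholangiocyte list, rose. Both lost the call without any 1 of the Flox libraries (adjusted p 0.0656 to 0.145), without F4MKO replicate 1 (0.114) and with only the 6 libraries compared (0.0590 for Epcam and 0.0631 for Spp1), and Spp1 also without any 1 of the F4MKO + FSTL1 libraries (0.0502 to 0.0529). In that comparison all 10 stellate cell markers and all 8 mitosis genes had log2 fold changes above 0. None of them was called by edgeR, in which 6 and 5 had an unadjusted p under 0.05. Among them DESeq2 called Col1a1 (adjusted p = 0.000361), Col1a2, Col3a1, Lum, Timp1 and Top2a higher, and it also called the cholangiocyte marker Krt19 higher. In F4MKO + FSTL1 compared with Flox the mitosis gene Ccnb1 fell (-3.15, edgeR adjusted p = 0.0470), a call lost with only the 6 libraries compared (0.0957) and without Flox replicate 2, F4MKO replicate 1 or 3, or F4MKO + FSTL1 replicate 1 or 2 (0.0671 to 0.187). In this comparison all 10 macrophage markers, all 10 stellate cell markers and all 8 mitosis genes had log2 fold changes below 0. Of these, 9, 7 and 8 had an unadjusted p under 0.05 in edgeR, which called only Ccnb1. Beyond Ccnb1, DESeq2 called Adgre1, Csf1r, Lyz2, C1qa, Col1a2, Col3a1, Lum, Mki67, Top2a, Bub1, Cdk1, Ccna2 and Hmmr lower. The part of these cells in the clock gene values was not tested, and in bulk liver fewer cells of a type and less RNA per cell cannot be told apart. The mitosis genes were not assigned to a cell type.

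The distance between the 2 sets of genes was measured as the mean log2 CPM of the 6 Dbp-phase genes minus that of the 3 Arntl-phase genes. It was 0.47, 1.74 and 2.55 in the Flox libraries 1, 2 and 3 and 0.63, 1.12 and 2.28 in those of F4MKO. It was 3.55, 3.36 and 3.43 in those of F4MKO + FSTL1. The groups Flox and F4MKO covered a similar span, and the F4MKO + FSTL1 libraries lay close together above it. For Dbp and Arntl alone, a liver held 1.76 to 12.8 Dbp counts per Arntl count in Flox, 1.71 to 8.83 in F4MKO and 25.8 to 39.7 in F4MKO + FSTL1. These ratios are of counts and not per length of gene.

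Variation between mice of the same group was compared gene by gene. Deviations from a group mean do not enter the difference between group means. The choice of genes whose groups stood apart can still favour genes with a small spread within groups. For each gene, the log2 CPM of a library was taken as a deviation from its group mean, and 3 pairs of genes were tested over the 9 libraries by exact permutation of libraries within groups (two-sided, over all orders, with a smallest possible p of 0.00463). Arntl and Dbp deviated in opposite directions (Pearson r = -0.94, exact permutation p = 0.0139, adjusted over the 3 pairs 0.0208; Spearman rho = -0.97, p = 0.00463, adjusted 0.0139). Without the 2 libraries in which Arntl lay farthest from the median, Flox replicates 1 and 3, r was -0.98, and leaving out single libraries gave -0.97 to -0.92. In the 6 Flox and F4MKO libraries alone, r was -0.95 (exact permutation p = 0.0278, the smallest that 36 orders allow), so the relation was as large without the F4MKO + FSTL1 mice.

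Dbp and Per3, an activator and a repressor that share the E-box pathway, deviated in the same direction (r = 0.92, exact permutation p = 0.00926, adjusted 0.0208; rho = 0.92, p = 0.0185, adjusted 0.0278; r = 0.90 without Flox replicate 1 and F4MKO replicate 3). For Arntl and Npas2, r was 0.90 (exact permutation p = 0.0370, adjusted 0.0370) and rho 0.82 (p = 0.0602, adjusted 0.0602, which misses 0.05). Without Flox replicates 1 and 3, r was 0.88. Flox replicate 1 and F4MKO replicate 1 combined the highest Arntl and Npas2 of their groups with the lowest Dbp, Tef and Hlf, and Flox replicate 3 and F4MKO replicate 3 the lowest Arntl and Npas2 with the highest Dbp, Tef and Hlf. These libraries carry the same numbers in the labels but are different mice, and the libraries numbered 3 are those that stood apart on the second principal component. The permutations reordered each group on its own, so the permutation p values above do not allow for a factor shared by same-numbered libraries.

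**Figure D3:**
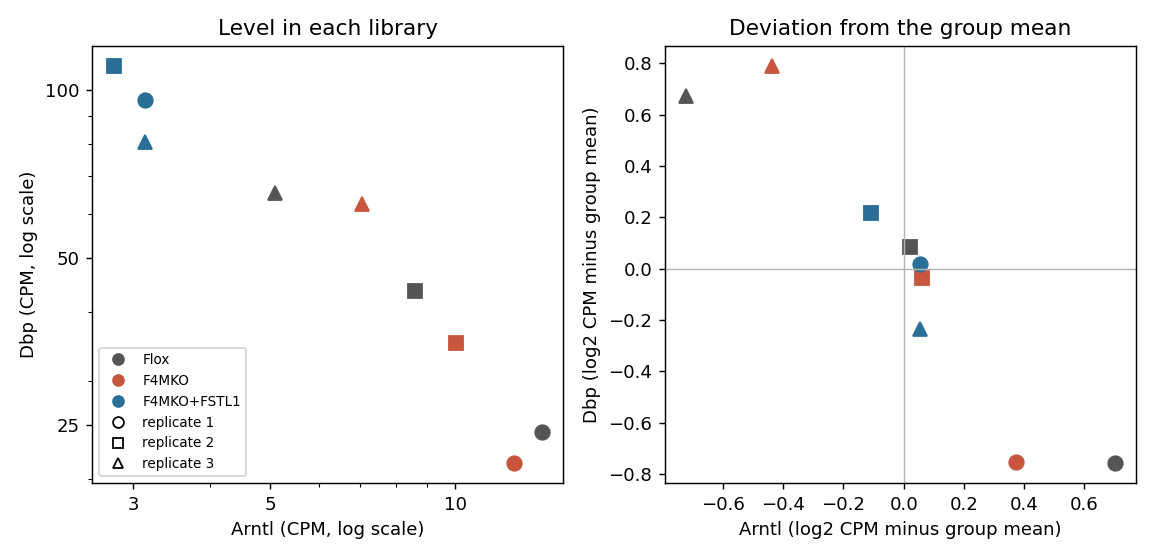
Dbp against Arntl in the 9 liver libraries, as CPM on log axes (left panel) and as deviations of log2 CPM from the group mean (right panel), with colour for the group and symbol for the replicate number. In the right panel Flox and F4MKO replicates 1 lie low on Dbp and high on Arntl and replicates 3 the reverse, which gives r = -0.94, and the F4MKO + FSTL1 libraries lie near the centre.

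The other pairs are a description without a test. Over all 36 pairs of the 9 genes, the 18 pairs within a phase set had positive within-group r (median 0.79, 0.39 to 0.99) and the 18 pairs across sets negative r (median -0.83, -0.96 to -0.06). Tef and Hlf were the most alike, at 0.99. Cry2 and Nfil3 held the weak values. Without them, r ranged from 0.73 to 0.99 in 11 pairs within sets and from -0.96 to -0.81 in 10 pairs across sets. As a background, 97 of 14378 other genes (0.675%) had a within-group r with Arntl beyond 0.9 in size, and these included 4 of the 8 other clock genes. With Dbp this held for 69 genes (0.480%), including 5 of the 8. The points share library and depth, and genes are not independent replicates.

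**Figure D4:**
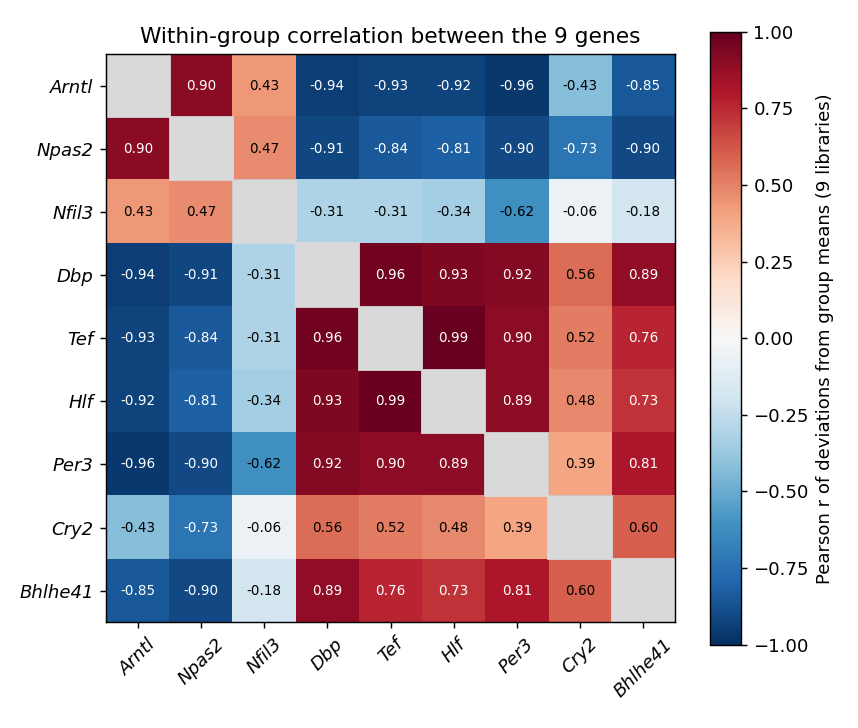
Pearson r of within-group deviations of log2 CPM over the 9 libraries for each pair of the 9 genes, from -1 (blue) to 1 (red), with Arntl-phase genes first. Values are positive within the 2 sets and negative between them, and they are near 0 for Nfil3 with Cry2 (-0.06).

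Within-group spread was large for most of these genes. The biological coefficient of variation in the edgeR fit was 31.8% for Dbp, against 12.5% for genes of its abundance, and 26.0% against 15.6% for Arntl. It was 36.6% against 21.8% for Npas2, 28.1% against 17.3% for Per3 and 24.96% against 15.8% for Bhlhe41. Hlf (14.5% against 12.2%) and Cry2 (14.4% against 12.7%) were closest to the trend. The spread was smaller in F4MKO + FSTL1. The SD of log2 CPM of Arntl was 0.71 in Flox, 0.41 in F4MKO and 0.09 in F4MKO + FSTL1, and that of Dbp was 0.72, 0.77 and 0.23. F4MKO + FSTL1 had the smallest SD of the 3 groups for 7 of the 9 genes (77.8%), all but Nfil3 and Cry2, and for 29.2% of all tested genes. The median SD of the 9 genes was 0.42, 0.41 and 0.17 in Flox, F4MKO and F4MKO + FSTL1, and that of all tested genes was 0.17, 0.17 and 0.18. With 3 mice per group these SDs are imprecise, and their difference was not tested. The genes were chosen because F4MKO + FSTL1 stood apart from F4MKO, which can itself favour a small spread, so nothing is read from these shares.

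Levels of different genes were compared per length, as CPM per kilobase of merged GENCODE M21 exons. In Flox livers the order was Tef (15.3 ± 3.74, SD, n = 3), Dbp (14.8 ± 6.89), Nfil3 (12.5 ± 3.70), Hlf (7.56 ± 1.62), Cry2 (4.10 ± 0.08), Arntl (1.22 ± 0.58), Bhlhe41 (0.73 ± 0.22), Per3 (0.44 ± 0.22) and Npas2 (0.42 ± 0.22). Tef, Dbp and Nfil3 did not differ beyond their spread, and neither did Arntl, Bhlhe41, Per3 and Npas2 as neighbours. In F4MKO livers Dbp (13.2 ± 6.97) and Tef (13.0 ± 2.85) led, and Npas2 (0.56 ± 0.29) and Per3 (0.38 ± 0.12) were last. In F4MKO + FSTL1 livers Dbp (32.0 ± 5.0) stood above Tef (24.01 ± 1.51). The activators came last there, Arntl (0.40 ± 0.03) below Bhlhe41 (1.76 ± 0.21) and Per3 (0.82 ± 0.08), and Npas2 (0.14 ± 0.02) below Arntl.

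Of 11 other genes of the loop 10 could be tested, since Rorb had at most 1 count per library. In F4MKO + FSTL1 compared with F4MKO, 1 of the 10 rose and none fell, with a median log2 fold change of 0.16 against 0.01 over all tested genes. Per2, a repressor of the loop, rose by a log2 fold change of 0.87 (SE 0.23, edgeR adjusted p = 0.0191). It was at 11.1 to 14.0 CPM in Flox, 11.5 to 14.2 CPM in F4MKO and 29.7, 26.0 and 14.1 CPM in the F4MKO + FSTL1 libraries 1, 2 and 3, of which the last was within the F4MKO range. The adjusted p of Per2 was 0.0534 without F4MKO replicate 2, 0.0520 without F4MKO replicate 3, 0.0670 without F4MKO + FSTL1 replicate 1 and 0.0741 without F4MKO + FSTL1 replicate 2. Nr1d2, which encodes REV-ERBβ, had an adjusted p of 0.0325 in edgeR and a log2 fold change of 0.42 (SE 0.12), under the fold threshold.

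The remaining genes of the list did not pass the test in this comparison. Clock, the main partner of ARNTL, had a log2 fold change of -0.16 (SE 0.12, edgeR adjusted p = 0.379), and Nr1d1, which encodes REV-ERBα and is driven by ARNTL, one of 0.29 (SE 0.15, adjusted p = 0.187). Per1 was at -0.23 (SE 0.38, adjusted p = 0.697), Cry1 at 0.13 (SE 0.21, adjusted p = 0.698) and Ciart, an E-box gene whose protein represses the loop, at 0.67 (SE 0.62, adjusted p = 0.471). Per1 (9.14 CPM) and Ciart (0.713 CPM) were lowest of all libraries in Flox replicate 1, the liver with the highest Arntl. None of the 10 genes was called in the other comparisons by edgeR. None had an unadjusted p under 0.05 in F4MKO compared with Flox, where DESeq2 called none, and 4 had in F4MKO + FSTL1 compared with Flox, where DESeq2 called Per2. The within-group r with Dbp was 0.84 for Nr1d2, 0.83 for Ciart, 0.68 for Nr1d1, 0.61 for Per1 and 0.17 for Per2. With Arntl it was -0.85 for Ciart, 0.74 for Clock, -0.72 for Per1, -0.67 for Nr1d2 and 0.64 for Rora. These values are a description over the 9 libraries.

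**Figure D5:**
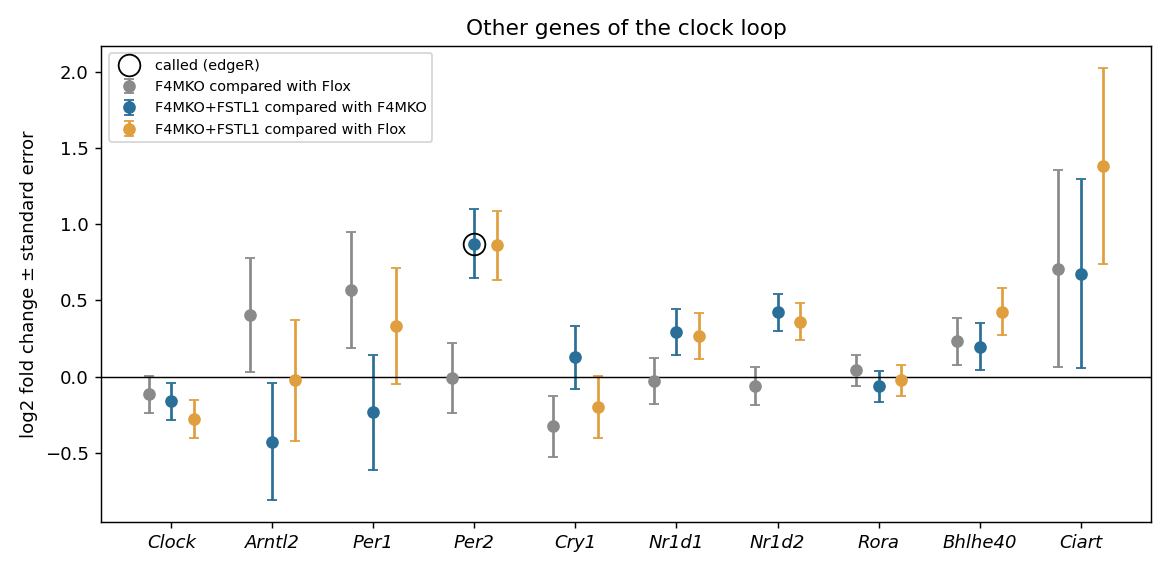
Log2 fold change ± SE (y axis) of the 10 tested other genes of the clock loop in the 3 comparisons, with a circle around the value called by edgeR. Per2 (0.87) is circled in F4MKO + FSTL1 compared with F4MKO, and no value is circled in the other comparisons.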

How the data were processed

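Liver RNA was sequenced by the authors as paired-end reads, and per the labels and methods the reads were trimmed with Trim Galore 0.6.7, mapped to mm10 with HISAT2 2.2.1 and counted on genes with featureCounts 2.0.1. The deposited values are raw counts (whole numbers) for 9 libraries. The annotation, the strand setting and the handling of multi-mapped reads are not given in the sources used here.

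The analysis used edgeR 4.0.16 in R 4.3.3 (filterByExpr, minimum count 10, equal to 0.432 CPM in the median library; TMM factors 0.927 to 1.17; quasi-likelihood test; all 9 libraries in a single fit with a mean per group, without a block). A gene was called at an adjusted p under 0.05 and a fold change above 1.5. Log2 CPM used a prior count of 2. The fit was tested on simulated data. Replicates are separate mice. Alternatives were DESeq2 1.42.0, its size factors in edgeR, no filter, only the libraries of the groups compared, a replicate block, no fold threshold, a test against 1.5-fold, a prior count of 0.5 and each library left out.

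The 9 genes and all gene lists were chosen with earlier results of these data known. Genes named are the 9, up to 4 called genes of each list, and the 5 genes outside the 9 most like and most opposite to Arntl and to Dbp. Lists were other loop genes, clock protein modifiers, E-box, PAR bZIP and REV-ERB and ROR outputs, glucocorticoid-responsive, temperature-responsive, fasting and feeding genes, mitosis genes and cell type markers, and 2 genes of these lists are not reported here. Promoters were read with Python 3.11.15 from RefSeq.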

Additional observations from a re-analysis of the deposited data

How the results depend on the processing

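No log2 fold change of a called clock gene changed sign under any alternative. Of the 9 clock genes, the test against a fold change of 1.5 called 2 in F4MKO + FSTL1 compared with F4MKO (Arntl and Bhlhe41), and leaving out a library called 3 to 8. Compared with Flox, DESeq2 called 3, no filter called 5 (Arntl, Npas2, Dbp, Tef and Bhlhe41), and leaving out a library 0 to 1. Of the other loop genes, 2 were called in F4MKO + FSTL1 compared with F4MKO without a fold threshold, 0 in the test against 1.5-fold, and 0 to 1 with a library left out. Compared with Flox, DESeq2 and no filter each called 1 and leaving out a library 0 to 1.

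Of all genes, F4MKO compared with Flox gave 39 calls, 338 by DESeq2, 478 without a filter, 11 with only the 6 libraries of the groups compared, 0 in the test against 1.5-fold and 0 to 100 with a library left out. F4MKO + FSTL1 compared with F4MKO gave 2070 calls, 620 in the test against 1.5-fold and 1295 to 2216 with a library left out. F4MKO + FSTL1 compared with Flox gave 1 call, 284 by DESeq2, 2 with the DESeq2 size factors, 379 without a filter, 0 with only 6 libraries, 0 in the test against 1.5-fold and 0 to 101 with a library left out. The cause of these differences was not tested, except that fewer libraries enter some fits.

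The replicate numbers were not taken as a pairing, since same-numbered libraries are different mice and the labels tie them to no shared batch or day. The correlations of their deviations averaged 0.10, 0.17 and 0.04 in the 3 comparisons and were not over 0.1 in every pair, and 5 of 6, 6 of 6 and 2 of 6 libraries correlated best with their own number, a hint from the data that same-numbered libraries share something. With the replicate block, 134 genes were called in F4MKO compared with Flox and 15 in F4MKO + FSTL1 compared with Flox, no call of the 9 clock genes changed, among other listed genes Col1a1, Col1a2, Col3a1 and Timp1 (F4MKO compared with Flox), Cyp8b1 (F4MKO + FSTL1 compared with F4MKO) and Adgre1 (F4MKO + FSTL1 compared with Flox) gained a call, and the within-group r of Arntl and Dbp was -0.88. Leaving out single libraries gave an r of -0.97 to -0.92. Npas2 had the fewest counts of the 9 genes (11 to 110 per library) and also the largest spread between mice.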

Other observations

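Genes that carry the clock signal into liver metabolism were counted from lists of known outputs, in F4MKO + FSTL1 compared with F4MKO, where 3.21% of all tested genes were called higher and 11.2% lower. The counts of the lists were not tested against these shares. Of 5 genes driven through E-boxes, 2 rose and none fell. Gys2, the liver glycogen synthase, was at 152.8 to 209.7 CPM in F4MKO and 291.6 to 342.1 CPM in F4MKO + FSTL1 (log2 fold change 0.81, SE 0.15, edgeR adjusted p = 0.00493). Usp2, a deubiquitinase that is also 1 of 12 listed modifiers of clock proteins, rose by a log2 fold change of 1.21 (SE 0.39, edgeR adjusted p = 0.0477) and missed 0.05 with DESeq2 (0.0777) and without any 1 of 7 libraries. No other gene among the modifiers was called.

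Of 9 outputs of the PAR bZIP factors, 1 rose and 2 fell. Nr1i3, the xenobiotic receptor CAR, was at 60.6 to 78.8 CPM in F4MKO and 111.5 to 141.9 CPM in F4MKO + FSTL1 (log2 fold change 0.85, SE 0.23, edgeR adjusted p = 0.0221). Without F4MKO replicate 1 its adjusted p was 0.0884, without F4MKO replicate 2 0.0523 and without F4MKO + FSTL1 replicate 3 0.0578. Cyp2b10 and Cyp2a4, cytochrome P450 genes of families with near-identical members, fell by log2 fold changes of 3.61 (SE 1.03, adjusted p = 0.0297) and 3.61 (SE 0.80, adjusted p = 0.00976), and both were highest in F4MKO replicate 2, with 22.6 CPM of Cyp2b10 and 80.8 CPM of Cyp2a4. Cyp2a4 was also at 37.9 CPM in F4MKO replicate 1, and without replicate 2 its log2 fold change was -2.72 and it kept its call. Without that library the log2 fold change of Cyp2b10 was -1.67 (adjusted p = 0.153), and without each F4MKO + FSTL1 library in turn its adjusted p was 0.0587 to 0.110. In Flox, Cyp2b10 was at 0.089 to 1.64 CPM and Cyp2a4 at 2.35 to 12.8 CPM. In F4MKO + FSTL1, Cyp2b10 was at 0.336 to 1.045 CPM and Cyp2a4 at 2.20 to 5.12 CPM, ranges that overlapped with Flox. Reads of these genes can be split between family members in the counting.

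Of 5 REV-ERB and ROR outputs, 1 rose and none fell. Cyp7b1, an oxysterol hydroxylase of bile acid synthesis, was at 112.9 to 171.9 CPM in Flox, 19.1 to 82.6 CPM in F4MKO and 153.2 to 248.5 CPM in F4MKO + FSTL1 (log2 fold change 1.76 against F4MKO, SE 0.41, edgeR adjusted p = 0.0121, and 0.0507 without F4MKO + FSTL1 replicate 2).

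Lists for other inputs to the liver clock were counted in the same comparison, in which 14.4% of all tested genes were called. Of 8 glucocorticoid-responsive genes 1 fell, the kinase gene Sgk1 (log2 fold change -0.88, SE 0.20, edgeR adjusted p = 0.0101, and 0.0515 without F4MKO + FSTL1 replicate 2). Of 9 tested fasting and feeding genes 1 fell, Igfbp1, which insulin represses. Igfbp1 was at 119.4 to 134.1 CPM in F4MKO and 30.0 to 62.3 CPM in F4MKO + FSTL1 (log2 fold change -1.35, SE 0.26, edgeR adjusted p = 0.00499). Of 7 tested temperature-responsive genes none was called by edgeR, and 1 had an unadjusted p under 0.05.

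Over all 9 libraries, group differences included, 76 genes had a Pearson r of log2 CPM above 0.9 with Arntl and 63 below -0.9, and the numbers for Dbp were 37 and 45. The genes below were ranked without the 9 clock genes. Those most like Arntl were Gramd4 (0.99), Dtx4 (0.99), Unc13b (0.98), Ddb1 (0.98) and Smarcd1 (0.98). The most opposite were Fam169a (-0.96), Gm30536 (-0.95), 4632404H12Rik (-0.95), Igfbp4 (-0.95) and Trub1 (-0.95). Of the clock genes, Tef (-0.971), Bhlhe41 (-0.965), Per3 (-0.963) and Dbp (-0.962) were more opposite to Arntl than any of these. In the same ranking the genes most like Dbp were Rhot1 (0.96), Slc5a6 (0.95), Bnip3 (0.95), Pcsk4 (0.94) and Fgfrl1 (0.94). The clock genes Tef (0.974) and Per3 (0.966) had a higher r with Dbp than any of these. The most opposite to Dbp were Chka (-0.95), Mageh1 (-0.95), Smarcd1 (-0.95), Sema4c (-0.95) and a gene whose symbol is held as a date in the table (-0.98). The clock genes Arntl and Npas2 (-0.962 each) were more opposite to Dbp than all of these but the last. These values have no test, and the libraries share depth and group.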
